A study of Mus musculus with 5 samples.

Results

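Hepatocytes that stayed in a liver non-parenchymal preparation are described here from single-cell RNA counts of mice with a congested liver and their sham-operated controls. A cell counted as a hepatocyte when it held at least 500 molecules, at least 200 genes and at most 25% mitochondrial molecules, and when Alb, Apoa1, Ttr and Fabp1 together made up at least 5% of its molecules. It also had to hold fewer than 10 molecules of the Kupffer genes Clec4f, Cd5l and Vsig4, and fewer than 10 of the endothelial genes Stab2, Clec4g, Kdr and Dnase1l3. This rule gave 69 hepatocytes among 17188 filtered cells (0.401%), out of 19815 cells in all. The cells were thus chosen by the measured levels of those 11 genes and by their mitochondrial share. Levels of the 11 genes are given below as a description. Alb, Apoa1, Ttr and Fabp1 stayed among the genes tested between groups. They enter the counts over all genes tested, and no test result is given for them.

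All animals were wild-type males that had surgery at 9 weeks of age and gave liver cells 2 weeks later. In 3 libraries the surgery was partial inferior vena cava ligation (pIVCL), which narrows the vein into which the hepatic veins drain, and in 2 libraries it was a sham procedure. Livers were perfused with pronase and collagenase, hepatocytes were spun out at low speed, and dead cells and erythrocytes were removed on a Percoll gradient before capture on the BD Rhapsody system. The share of hepatocytes therefore counts what escaped a step meant to remove them, and not the make-up of the liver. Libraries pIVCL 2 and pIVCL 3 belonged to batch 2021.7, and pIVCL 1 shared batch 2021.3 with both sham libraries. Whether each library stands for its own animal is not in the labels. A p-value below therefore refers to variation among these 5 libraries, part of which may be technical.

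Hepatocytes are the secretory and metabolic cells of the liver. They release most plasma proteins, make glucose, urea and bile acids, and clear drugs and ammonia. Their enzymes are zoned along the lobule: cells near the portal vein are known for gluconeogenesis and the urea cycle, whereas cells near the central vein are known for glutamine synthesis and cytochrome P450 metabolism. In congestion the rise in venous pressure reaches the lobule from the central side.

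The 5 libraries held 12448260 to 30523228 molecules and 2680 to 5000 cells, and any 2 libraries shared 8 to 30 cell barcodes. The hepatocytes together held 126068 molecules, with a median of 1531 per cell (922 to 5113). In pIVCL 3, hepatocytes had a median of 1483 molecules, 695 genes and 2.96% mitochondrial molecules, whereas the other filtered cells of that library had 3034.5 molecules, 1450.5 genes and 6.87%. After each cell was thinned to 1000 molecules, which left out 4 of 57 hepatocytes, the hepatocytes of pIVCL 3 showed a median of 548 genes, against 707 in 748 endothelial cells and 659 in 385 Kupffer cells (cells with 10 or more molecules of the endothelial or Kupffer rule genes). At equal depth, the hepatocytes thus spread their molecules over fewer genes. The rule itself required at least 5% of a hepatocyte's molecules to lie in 4 genes, so this was in part set by it.

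The label was checked on genes that the rule did not use. Pck1, the rate-limiting enzyme of gluconeogenesis, was detected in 50 of the 57 hepatocytes of pIVCL 3, at 3471 CPM. CPM are a gene's molecules in the summed cells scaled to one common total, not divided by transcript length and not otherwise normalised. Thinned to 1000 molecules, 77.4% of those hepatocytes showed Pck1, against 1.87% of endothelial and 2.86% of Kupffer cells of the same library, which gives the background level in other cells. Ass1, an enzyme of the urea cycle, was seen in 98.1% of thinned hepatocytes, against 3.61% of endothelial cells. Alb, the leading gene, was detected in 17.6% of thinned endothelial cells and 30.4% of thinned Kupffer cells. Free RNA and joint capture with a hepatocyte cannot be told apart in these values.

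Markers of other cell types were at or near 0 in the hepatocytes. Of 12 endothelial markers 5 had no molecule in any of the 69 cells, the others gave 17 molecules in all, and the summed list made up 0.00566 to 0.0196% of the molecules in the pIVCL libraries, against 0 to 0.0244% in the sham libraries. Of 12 Kupffer markers 5 were at 0 and the rest summed to 15 molecules. The stellate and fibroblast list gave 11 molecules, of which 10 lay in 1 cell of pIVCL 3, and that cell was the only hepatocyte with 10 or more molecules of another type's list. B-cell and T or NK lists gave 1 molecule each, with 9 of 10 and 11 of 12 markers at 0. The myeloid list gave 50 molecules over 3 genes (Plac8, Cst3, Lyz2), the erythroid list 42, and the cholangiocyte list 18 from Spp1 and Tm4sf4, with Epcam and Krt19 at 0. The endothelial and Kupffer lists hold the 7 genes that the rule limited, so their low shares were in part set by it. The stellate, lymphocyte, myeloid and erythroid lists, which the rule did not use, made up a smaller share in the hepatocytes than in the rest of the cells, and the cholangiocyte list did not (0.0143% in hepatocytes, 0.0121% in the rest).

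Most hepatocytes came from 1 library. There were 1, 8 and 57 hepatocytes in pIVCL 1, 2 and 3, against 2 and 1 in sham 1 and 2, so pIVCL 3 held 82.6% of them. As shares of filtered cells these were 0.0384, 0.230 and 2.01% in the pIVCL libraries, against 0.0450 and 0.0261% in the sham libraries. The exact binomial interval of pIVCL 3, 1.53 to 2.60%, lay above the upper bounds of all others, the next of which was 0.452% in pIVCL 2. These intervals cover counting error only. The mean share was 0.760 ± 1.09% in pIVCL (SD, n = 3) and 0.0356 ± 0.0134% in sham (SD, n = 2), a difference of 0.725 percentage points that was smaller than the spread between pIVCL libraries (two-sided exact permutation test, p = 0.6, where the smallest possible p is 0.1). The groups overlapped, since pIVCL 1 lay between the sham libraries. Without pIVCL 3 the difference was 0.0985 percentage points, and within batch 2021.3 pIVCL 1 exceeded the sham mean by 0.00288 percentage points. A 10% threshold gave a difference of 0.0241 and a 2% threshold one of 3.25 percentage points. The part of batch, handling or ligation in the high count of pIVCL 3 was not tested.

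**Figure D1:**
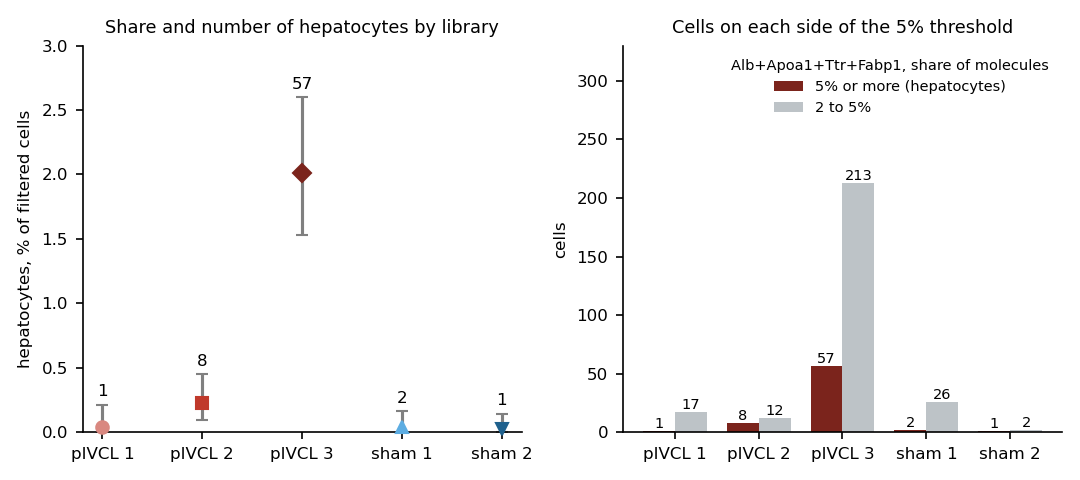
Left, hepatocytes as a percentage of filtered cells in each library, with 95% exact binomial intervals and the number of hepatocytes above each point. Right, the number of cells at or above the 5% threshold beside those at 2 to 5%, and pIVCL 3 holds 57 and 213 of them.

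The 5% threshold cut through a continuous range, and whether the cells on either side of it were intact was not tested. The 5 cells just inside it held 5.01 to 5.14% of their molecules in the secretory genes, and the 5 just outside 4.94 to 4.99%, all of them from pIVCL 3. Among the hepatocytes 27 lay between 5 and 6%, 34 between 6 and 8%, and 8 at or above 8%, and the highest, at 14.4%, was a sham 1 cell. Below the threshold, with the same limits on Kupffer and endothelial genes, there were 54 cells at 4 to 5%, 92 at 3 to 4% and 124 at 2 to 3%. Of these 270 cells 17, 12 and 213 came from pIVCL 1, 2 and 3, against 26 and 2 from sham 1 and 2. Of cells at or above 5%, the mitochondrial limit removed 1 in pIVCL 1 and 3 in pIVCL 3, and the limits on Kupffer and endothelial genes removed none.

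Cells on the low side of the threshold in pIVCL 3 carried other hepatocyte transcripts too. Pck1 stood at 5700 CPM in its 39 cells at 4 to 5%, against 3166 at 5 to 6% and 3699 at 6% or more. Ass1 likewise read 5507 at 4 to 5% and 4249 at 6% or more, and Gstm1, a glutathione transferase, 7650 and 8897. Mup20, a major urinary protein gene that the rule did not use, climbed along the whole range: 4986 at 1 to 2%, 12583 at 2 to 3%, 23096 at 3 to 4%, 29459 at 4 to 5% and 37787 at 6% or more. Cyp3a11 and Cyp2f2 had the same order, with 472 and 223 at 1 to 2% and 2902 and 1574 at 6% or more. Glul, glutamine synthetase and a marker of the hepatocytes around the central vein, did not climb along the range. It read 936 at 1 to 2%, 1091 at 2 to 3%, 127 at 3 to 4%, 27.5 at 4 to 5% and 94.8 at 6% or more. Glul is no hepatocyte-specific transcript here, since 34.5% of thinned endothelial and 58.2% of thinned Kupffer cells showed it, against 5.66% of thinned hepatocytes. The pericentral P450 gene Cyp2e1 did not climb either, at 557 at 1 to 2%, 165 at 4 to 5% and 360 at 6% or more, and Rgn read 2633, 989 and 1328 there. The mitochondrial share was low throughout, with medians of 0.665% at 1 to 2%, 1.72% at 4 to 5% and 2.11% at 6% or more.

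**Figure D2:**
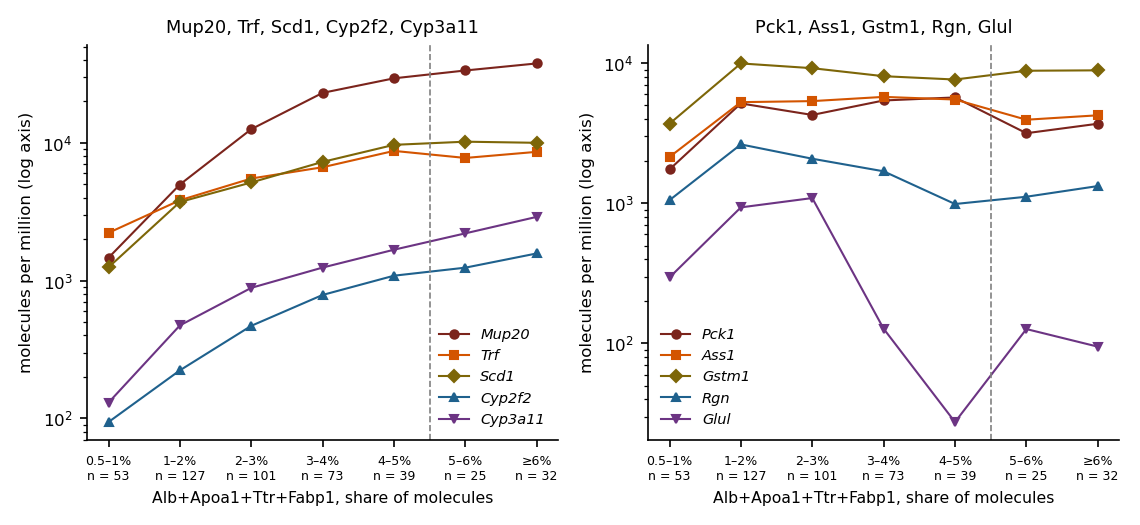
Level in CPM, on a log axis, of 10 genes in pIVCL 3, summed over cells binned by the share of Alb, Apoa1, Ttr and Fabp1, with the dashed line at the 5% threshold. Mup20 reads 37787 and Glul 94.8 in the highest bin, whereas Pck1 reads 5700 at 4 to 5% and 3699 in the highest bin.

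The hepatocyte programme is held by a small set of transcription factors, among them HNF1, whose binding sites contain the letters GTTAAT and are known from the albumin promoter. The promoters below belong to leading genes of these cells and are shown for that motif, in capitals, in the 100 bases before the RefSeq start site (build GRCm38.p6, sequence in the direction of the gene). The windows are chr5:90460770-90460869 on the plus strand for Alb, chr5:89457899-89457998 on the minus strand for Gc, and chr12:103904951-103905050 on the minus strand for Serpina1c.
Alb: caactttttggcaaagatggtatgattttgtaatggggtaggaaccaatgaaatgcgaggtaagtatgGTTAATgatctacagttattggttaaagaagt
Gc: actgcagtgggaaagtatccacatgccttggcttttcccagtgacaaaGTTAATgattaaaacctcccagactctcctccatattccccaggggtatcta
Serpina1c: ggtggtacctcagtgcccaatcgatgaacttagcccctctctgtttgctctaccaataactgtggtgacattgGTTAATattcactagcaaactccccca
The motif begins 32, 52 and 27 bases before the start site of Alb, Gc and Serpina1c. Among the 25 genes with the most molecules in the hepatocytes of pIVCL 3, 22 are nuclear and 13 of these matched the RefSeq table. GTTAAT, or ATTAAC on the other strand, occurred in the 250 bases before the start of 6 of the 13 (Alb, Apoe, Gc, Serpina1a, Serpina1c, Serpina1e; 46.2%), against 7.49% of all 27025 genes in the table. The Serpina1 genes are near copies of each other, so these promoters are not separate examples, and a match of letters does not show a bound site.

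These leading genes made up 25.8% of all hepatocyte molecules in pIVCL 3, with 23.0 and 26.8% in pIVCL 1 and 2, against 36.6 and 29.7% in sham 1 and 2. Alb, serum albumin, led with 40054 CPM in pIVCL 3 and 21 to 216 molecules per cell (median 56). It stood at 36965 and 51533 in pIVCL 1 and 2, against 85251 and 47104 in sham 1 and 2. Mup20 (also called darcin, a male urinary pheromone protein) came next at 35987 in pIVCL 3, with 2 to 406 molecules per cell and a median of 39. Its other libraries read 11539 and 26700 in pIVCL 1 and 2, against 19973 and 14306 in sham 1 and 2, so Mup20 exceeded the sham values in 2 of the 3 pIVCL libraries. Among nuclear genes there followed Mup3 (18601), Apoa1, the protein core of high-density lipoprotein (10271), the fatty-acid desaturase Scd1 (10098), the protease inhibitor Serpina1c (10054), the vitamin D carrier Gc (9664) and the thyroid hormone carrier Ttr (9534). Mup and Serpina1 genes belong to families of near-identical copies, so the division of molecules between members is uncertain. The mitochondrial genes mt-Co1, mt-Nd4 and mt-Nd2 were the only ones of the 25 for which endothelial cells of pIVCL 3 had a higher level (20230, 11187 and 8100 CPM) than the hepatocytes did (12234, 7516 and 5705).

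**Figure D3:**
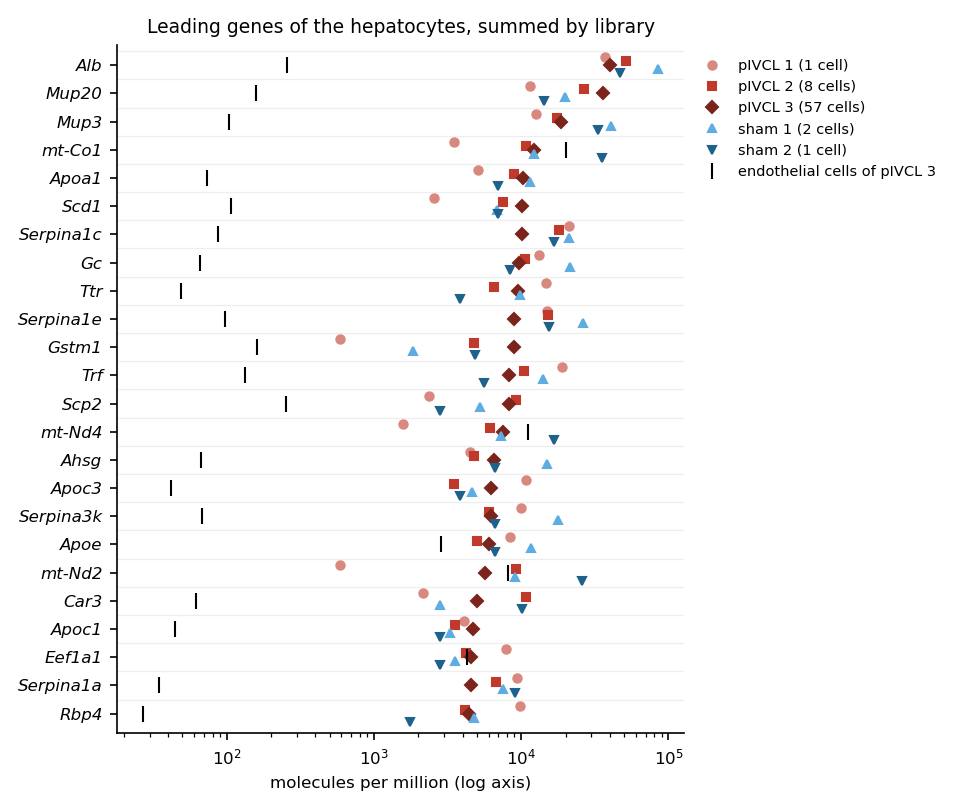
Level in CPM, on a log axis, of leading genes, drawn from the 25 with the most molecules in the hepatocytes of pIVCL 3, with 1 point for each library and a vertical mark for the endothelial cells of pIVCL 3. Alb reads 40054 in hepatocytes and 258 in endothelial cells, and Rbp4 4393 and 26.9, whereas Apoe reads 6085 and 2841.

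Genes for plasma proteins were seen in nearly every list member. All 16 apolipoprotein genes in the files were detected in pIVCL 3 hepatocytes and 7 of them in at least 50% of cells, led by Apoa1, Apoc3 (6247 CPM), Apoe (6085) and Apoc1 (4675). Their sum was 3.42% of the molecules in pIVCL 3. Of 23 coagulation genes 22 were detected, led by the fibrinogen chains Fgb (2375), Fga (1920) and Fgg (1410) and by the thrombin inhibitor Serpinc1 (1302). Of 19 complement genes 18 were detected, with C9 (1106), the lectin Mbl2 (922) and C3 (846) on top, and of 20 acute-phase genes 19, with hemopexin Hpx (1269), haptoglobin Hp (1258), Orm1 (1236) and ceruloplasmin Cp (998). Hepatokines were led by Ahsg, the calcium-binding fetuin (6497), and the retinol carrier Rbp4 (4393). Iron genes were led by transferrin, Trf (8254), and the ferritin chains Ftl1 (3557) and Fth1 (1985). Hepcidin, Hamp, the hormone that blocks iron export, was found in 25 of 57 cells at 0 to 24 molecules per cell.

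Metabolic enzymes were likewise broadly present. All 8 urea-cycle genes were detected, with Ass1 (4121 CPM, in 57 of 57 cells), Arg1 (1432), Otc (1128) and Asl (662). Of 12 gluconeogenesis genes 11 were detected, among them Pck1 and the bisphosphatase Fbp1 (1898). All 18 genes of amino-acid metabolism were found, 9 of them in at least 50% of cells, with Mat1a (3145), which makes S-adenosylmethionine, Bhmt (2798) and urate oxidase Uox (2332) at the top. Of 23 fat-oxidation genes 21 were detected, among them the thiolase Acaa2 (933). Scd1 led lipid synthesis, far above Me1 (423) and the sterol enzymes Hmgcs1 (412) and Idi1 (369). Phase 2 detoxification was detected in 20 of 20 genes, led by Gstm1 (8872). Only 27 of 42 cytochrome P450 genes were detected, led by Cyp3a11 (2603), Cyp2f2 (1432) and Cyp2c70 (683). Of 23 bile-acid genes 22 were found, with the carrier Scp2 (8232) first and the uptake transporters Slco1b2 (477) and Slc10a1 (195) much lower.

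Male-biased genes were detected and female-biased genes were not. Of 11 male-biased genes all were detected, led by Mup20 and Serpina1e (8883 CPM), with Cyp2d9 at 423. None of 9 female-biased genes had a molecule in any hepatocyte library, among them Cyp2b9, Cyp2a4 and Cyp3a44, where a count of 0 (limit of 3 molecules) allows up to 32.5 CPM in pIVCL 3. The factors behind the programme were sparse: 18 of 20 hepatocyte transcription factor genes were detected, none in 50% of cells, with Hnf4a in 21 cells at 369 CPM and Cebpa in 16 cells at 282.

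Stress and injury genes made up small shares of the molecules. Immediate-early and heat-shock genes made up 0.232% of the molecules in pIVCL 3 hepatocytes, against 0.520% in its endothelial cells, with Jund (770 CPM) first and Jun in 4 of 57 cells. Genes linked to hepatocyte dedifferentiation gave 0.0998%, against 0.232% in endothelial cells, led by the keratins Krt18 (575, in 26 cells) and Krt8 (282, in 17 cells), and 7 of 19 genes were detected. Hypoxia genes reached 0.184%, against 0.154% in endothelial cells, led by Pgk1 (683) and Ldha (629), with 9 of 19 detected. Endoplasmic reticulum stress genes gave 0.292%, against 0.399% in endothelial cells, and the NRF2 targets 0.193%, against 0.0301% in endothelial cells, with Gclm (792), the regulatory subunit for glutathione synthesis, on top. Proliferation genes were near the floor, with Cdk1 at 3 molecules in 2 cells and a median of 0% per cell. Of the antigen-presentation and interferon list, B2m stood at 3330 and H2-K1 at 813, and the list made up 0.508%, against 1.24% in endothelial cells.

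In zonation, most hepatocytes held more periportal than pericentral transcripts. The periportal list of 30 genes made up 2.95% of the molecules in pIVCL 3 and the pericentral list of 30 genes 0.761%. Per cell, there were 12 to 104 periportal molecules (median 45) and 0 to 66 pericentral ones (median 11). Periportal molecules outnumbered pericentral ones in 54 of 57 cells, and 1 of these had no pericentral molecule. The lists hold genes of different abundance, so equal numbers do not mark the middle of the lobule.

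All 30 periportal genes were detected, 11 of them in at least 50% of cells. Beside Trf, Ass1, Pck1, Fbp1, Arg1 and Cyp2f2 the list held the immunoglobulin transporter Pigr (1399 CPM), the growth factor Igf1 (987), the histidine-degrading enzymes Hal (738) and Uroc1 (683), and the serine dehydratase Sds (390). Of 30 pericentral genes 20 were detected, 2 of them (Cyp3a11 and the retinal dehydrogenase Aldh1a1) in at least 50% of cells. Aldh1a1 stood at 1811 CPM and Rgn, regucalcin, at 1236. Cyp2e1, the ethanol-oxidising P450 and a standard pericentral marker, was detected in 13 of 57 cells with 37 molecules in all (401), Cyp1a2 in 10 cells with 15 molecules, Glul in 8 with 10 and Oat in 3 with 3. The genes at 0 were Axin2 and Lgr5, both Wnt targets of the innermost hepatocytes, Slc1a2 and Rhbg, both transporters, and Cyp2a5, Cyp2c37, Avpr1a, Slc13a3, Slc1a4 and Prodh. Of 5 genes listed as midzonal, Mup3 and Hamp led.

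Some cells departed from the periportal side. The 3 cells of pIVCL 3 with more pericentral molecules had 66 against 54, 18 against 12 and 31 against 12, out of 2597, 927 and 1102 molecules. They held 18, 3 and 15 molecules of Cyp3a11, 4, 4 and 2 of Cyp2e1 and none of Glul. The 13 cells with Cyp2e1 had a median of 2100 molecules, against 1373 in the 44 without, so the cells that showed it were also the deeper ones. In CPM, the cells with Cyp2e1 had more Rgn (2370, exact Poisson interval 1809 to 3051, against 807, 606 to 1053) and less Pck1 (2133, 1603 to 2784, against 3977, 3513 to 4485) than the cells without. The intervals do not overlap for either gene, cover counting error only and give no test, because the cells come from 1 library. Among the other zone genes compared, those of Ass1, Aldh1a1 and Cyp2c29 were apart too. They overlapped for Cyp2f2 (608 to 1411 with Cyp2e1, 1325 to 1949 without) and Cyp3a11 (2577 to 4021 with, 2008 to 2761 without). Hal, Sds, Trf, Glul, Cyp1a2, Cyp2c50, Gulo and Gstm3 overlapped as well. Mup20 was lower in the cells with Cyp2e1 as well, at 26786, against 39469 CPM in the cells without.

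**Figure D4:**
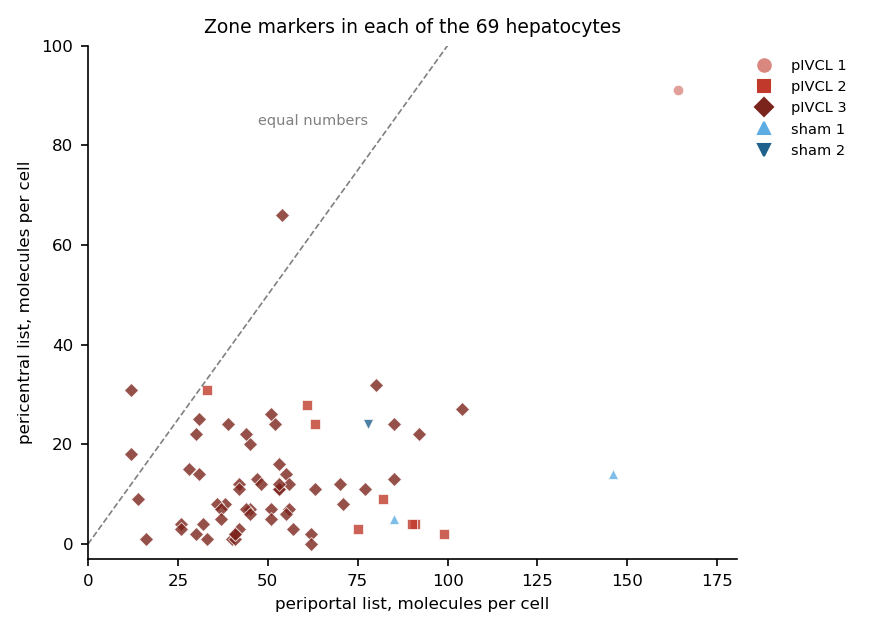
Pericentral-list molecules (vertical axis) against periportal-list molecules (horizontal axis) in each of the 69 hepatocytes, coloured by library, with the dashed line at equal numbers. In pIVCL 3, 54 of 57 cells lie below the line and 3 above it.

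Across libraries the balance of the zones varied as much within groups as between them. The log2 ratio of pericentral to periportal molecules was -0.85, -2.50 and -1.95 in pIVCL 1, 2 and 3, against -3.60 and -1.70 in sham 1 and 2, and the groups overlapped. Its mean was -1.77 ± 0.84 in pIVCL (SD, n = 3) and -2.65 ± 1.35 in sham (SD, n = 2), a difference of 0.88 (two-sided exact permutation test, p = 0.5, smallest possible 0.1). The difference turned to -0.067 without sham 1 and to -0.98 with a 2% threshold, an alternative added after the data were seen. The single cell of pIVCL 1 held 37 Cyp2e1 molecules, as many as all 57 cells of pIVCL 3, together with 5 of Glul and 7 of Cyp2c29. The 8 cells of pIVCL 2 held 13 Cyp2e1 molecules, and the 3 sham cells none. With 1 to 8 cells in 4 of the 5 libraries, the ratio of each such library is that of a few cells.

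Among the hepatocytes of pIVCL 3, transcripts differed widely in the ratio of variance to mean over cells. In the 53 cells thinned to 1000 molecules, the median ratio of variance to mean over 276 genes with a mean of at least 0.5 molecules was 1.36. It was 22.7 for mt-Co1 (0 to 99 molecules per thinned cell), 18.8 for Mup20 (1 to 108), 7.49 for Scd1 (0 to 31) and 4.67 for Mup3 (1 to 49). Hamp reached 4.15 with a median of 0 and a highest value of 12. Alb stood at 4.05 (12 to 100), Serpina1e at 3.88, Rgn at 3.78, Cyp3a11 at 3.42 and Pck1 at 3.34. Gstm1 stood at 4.06 and Apoe at 3.62. At the same relative spread the ratio is higher for genes with a higher mean, so it does not rank these genes by evenness. The thinned mean was 40.2 for Alb, 11.5 for mt-Co1 and 1.23 for Rgn. As a description over these 53 cells of 1 library and 1 depth, the Pearson correlation of log2 thinned counts was 0.48 between Pck1 and Cyp2f2, 0.49 between Pck1 and Hal and 0.38 between Pck1 and Ass1, all periportal genes. Between Hal and Ass1, also both periportal, it was 0.42. Not every pair within a zone moved together, with 0.11 between the periportal Cyp2f2 and Hal and 0.034 between the pericentral Cyp3a11 and Rgn. Across zones, the correlation was -0.37 between Pck1 and Rgn. Between Mup20 and Mup3 it was 0.51, between Mup20 and Rgn -0.35, and between Mup20 and Pck1 0.079. Between mt-Co1 and mt-Nd4 it was 0.84.

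The comparison of pIVCL with sham hepatocytes rested on 66 cells against 3. Molecules were summed over the hepatocytes of each library (5113, 17678 and 92200 in pIVCL 1, 2 and 3, against 8211 and 2866 in sham 1 and 2), and 117 genes had enough molecules to be tested. Of these 8 passed edgeR's quasi-likelihood test at a Benjamini-Hochberg adjusted p of 0.05 (6.84% of the genes tested), with 2 higher (1.71%) and 6 lower (5.13%) in pIVCL. A gene could enter the test by its level in 2 libraries of either group alone. When that expression filter was left out, no gene passed. Without pIVCL 2, without sham 2 and with replicate number as a block 1 gene passed, and without pIVCL 3, without sham 1 and within batch 2021.3 none did (edgeR, with 8, 29 and 18 genes at an unadjusted p under 0.05), whereas without pIVCL 1 there were 27. With batch as a term 4 genes passed, of which Rpl41 was the only one among these 8. The libraries of the groups did not overlap for 21 genes higher (17.9%) and 23 genes lower (19.7%) in pIVCL. The median log2 fold change over all 117 genes was 0.35.

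The genes higher in pIVCL were Aldh1a1 and Rpl41, a ribosomal protein gene. Aldh1a1 gave 4, 28 and 167 molecules in pIVCL 1, 2 and 3, against 1 and 0 in sham 1 and 2. Summed over libraries this is 199 against 1 molecule, or 19.2 times more per molecule counted, with an exact interval of 3.40 to 761 that covers counting error only. In the fit its log2 fold change was 4.10 ± 1.29 (SE, adjusted p = 0.0344). Rpl41 gave 21, 25 and 135 molecules in pIVCL 1, 2 and 3, against 2 and 1 in sham 1 and 2, a ratio of 5.81 (1.96 to 28.4) and a log2 fold change of 3.05 ± 0.94 (adjusted p = 0.0344). The groups of libraries stood apart for Rpl41. For Aldh1a1 this cannot be said, because sham 2 gave 0 molecules. That count (limit of 3 molecules) allows up to 1047 CPM, above the 805 normalised CPM of pIVCL 1. Both genes reached the level needed for testing only in pIVCL libraries. They thus entered the test through the group where they were high. With the DESeq2 Wald test and with the replicate block neither gene passed, at log2 fold changes of 4.03 and 3.63 for Aldh1a1 and 3.17 and 3.48 for Rpl41. At the 2% threshold the log2 fold change was 0.19 for Aldh1a1 and 0.25 for Rpl41.

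Mup11, a urinary protein gene, fell by 4.43 ± 0.75 on the log2 scale (adjusted p = 7.83e-07), with 402, 238 and 110 normalised CPM (scaled by edgeR's TMM factors) in pIVCL 1, 2 and 3, against 5755 and 1686 in sham 1 and 2. All 50 Mup11 molecules of sham 1 lay in 1 of its 2 cells, which makes that value the level of a single cell. Pzp, a protease-trapping plasma protein, fell by 2.64 ± 0.75 (adjusted p = 0.0251), with 805, 714 and 1010 normalised CPM in pIVCL 1, 2 and 3, against 5985 and 4720 in sham 1 and 2. The same sham 1 cell held 50 of its 52 Pzp molecules, and sham 2 held 14. That cell had the highest secretory share of all hepatocytes, 14.4%. Its 4868 molecules fell on 653 genes, against 1421 genes in the 3343 molecules of the other sham 1 cell. It held no molecule of Aldh1a1 or Rpl41. Mup11 and Pzp reached the level needed for testing only in the sham libraries. These genes too entered the test through the group where they were high.

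**Figure D5:**
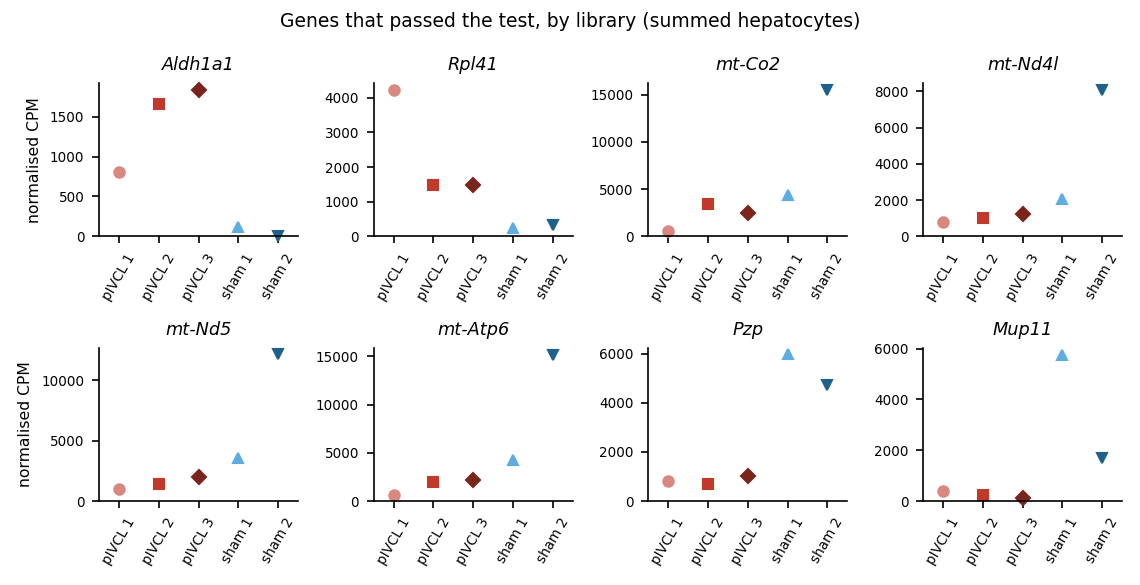
Normalised CPM of the 8 genes that passed the test, summed over the hepatocytes of each library, with the 3 pIVCL libraries left of the 2 sham libraries. For mt-Co2, mt-Nd4l, mt-Nd5 and mt-Atp6 the single cell of sham 2 stands above all other libraries.

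The other 4 genes that fell were mitochondrial. These were mt-Atp6 (-2.48 ± 0.72, adjusted p = 0.0251), mt-Nd5 (-2.30 ± 0.73, adjusted p = 0.0344), mt-Nd4l (-2.19 ± 0.74) and mt-Co2 (-2.10 ± 0.71, adjusted p = 0.0493 for both), subunits of the respiratory chain and ATP synthase. For mt-Atp6 the libraries read 604, 1963 and 2184 normalised CPM in pIVCL 1, 2 and 3, against 4259 and 15173 in sham 1 and 2. The single cell of sham 2 had 16.9% mitochondrial molecules, and the 2 cells of sham 1 had 9.04 and 1.56%. The medians were 1.37, 2.82 and 2.96% in pIVCL 1, 2 and 3. These 4 genes are part of the mitochondrial share, so the share is no separate observation. The rule also limited that share, so these 4 calls rest on values that it used. Among the 2 cells of sham 1, that with 9.04% held 35 of the 37 mt-Atp6 molecules and 28 of the 31 mt-Nd5 molecules. It held 33 of the 38 mt-Co2 and 13 of the 18 mt-Nd4l molecules as well. Without the 25% limit on mitochondrial molecules, an alternative added after the data were seen that brought 1 more cell into pIVCL 1 and 3 into pIVCL 3, no call among the 4 remained. The log2 fold changes were then -0.34 for mt-Atp6, -0.60 for mt-Nd5, -0.67 for mt-Nd4l and -0.24 for mt-Co2, with adjusted p-values of 0.742 to 0.905 in edgeR.

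By lists, and beside 6.84% called over all genes tested, Aldh1a1 was the only gene called among 2 tested pericentral genes, none of 10 periportal genes was called, and Mup11 was the only call among 3 tested urinary protein genes. No gene was called among 5 tested coagulation, 3 complement, 4 acute-phase, 4 apolipoprotein, 2 urea-cycle, 4 gluconeogenesis, 3 cytochrome P450, 2 bile-acid, 1 lipid-synthesis, 2 male-biased, 5 detoxification, 4 amino-acid, 5 hepatokine, 6 iron and 2 antigen-presentation genes. At an unadjusted p of 0.05, 28 of the 117 genes (23.9%) passed. The median log2 fold change was -1.31 over the coagulation genes, -0.73 over the acute-phase genes, 1.08 over the gluconeogenesis genes and 0.92 over the urea-cycle genes, beside 0.35 over all genes.

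Several genes that did not pass had libraries that stood apart, as was common over all 117 genes tested (17.9% higher and 19.7% lower in pIVCL). The fibrinogen chain Fgb had 2214, 2260 and 2404 normalised CPM in pIVCL 1, 2 and 3, against 9323 and 5395 in sham 1 and 2 (log2 fold change -1.70 ± 0.71, adjusted p = 0.107). For Fgg the log2 fold change was -1.86 ± 0.74 (adjusted p = 0.101), for Hc, complement C5, -2.73 ± 1.07, for Cp -1.63 ± 0.66, and for H2-K1 -1.60 ± 0.65. In the other direction Fbp1 had 1006, 1963 and 1921 in pIVCL 1, 2 and 3, against 345 and 337 in sham 1 and 2 (2.30 ± 0.88, adjusted p = 0.0936). Gsta3, a glutathione transferase, had a log2 fold change of 1.89 ± 0.81 and Ftl1 one of 1.99 ± 0.85. Mup3 stood at -1.08 ± 0.50 and Cyp2d26 at -1.87 ± 0.95.

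Of the remaining genes with the lowest p of their lists, Apoc1 and Cyp2f2 had libraries that stood apart, and the others overlapped between groups. None passed, with adjusted p-values of 0.308 or more in edgeR. Apoc3 had a log2 fold change of 0.76 ± 0.72, Apoc1 0.53 ± 0.76, C3 -0.68 ± 0.66 and Hp -0.68 ± 0.65. Among enzymes the log2 fold change was 1.43 ± 0.97 for Arg1, 0.41 ± 0.78 for Ass1, 1.09 ± 0.81 for Mat1a, 0.99 ± 0.75 for Bhmt and 1.11 ± 0.76 for Adh1. Scd1 was at 0.096 ± 0.69, Cyp2f2 at -0.64 ± 0.67, Scp2 at 0.82 ± 0.72 and Slco1b2 at -0.78 ± 0.96. Mup20 had 0.64 ± 0.53, Serpina1e -0.58 ± 0.56, Ahsg -0.93 ± 0.67, Rbp4 0.92 ± 0.74 and B2m 1.26 ± 0.80. Differences above their SE, such as those of Arg1 and B2m, thus did not pass either, nor did Fgb at -1.70 ± 0.71. With 3 sham cells, the lack of a call does not show that a gene was unchanged.

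At the 2% threshold the sums held more cells (18, 20 and 270 in pIVCL 1, 2 and 3, against 28 and 3 in sham 1 and 2) and 1452 genes were tested. There 3 genes passed, all urinary protein genes lower in pIVCL, whereas Mup11 did not (log2 fold change -3.89, adjusted p = 0.208 in edgeR). Mup7 had a log2 fold change of -4.29 ± 0.67, Mup9 of -3.89 ± 0.66 and Mup12 of -3.35 ± 0.58 (adjusted p = 0.0309 for each). Mup7 read 48.1, 120 and 124 normalised CPM in pIVCL 1, 2 and 3, against 689 and 3427 in sham 1 and 2. Among cells at or above 5%, the 8 Mup7 and 5 Mup9 molecules of sham 1 all lay in the cell that held its Mup11. Its 12 Mup12 molecules were split 8 and 4 between the 2 cells. The single such cell of sham 2 held 9, 3 and 3 molecules of Mup7, Mup9 and Mup12. These genes are near copies of Mup11, so which member the molecules came from is uncertain, and they were named after their values were seen.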

How the data were processed

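The 5 deposited tables hold molecule counts per gene and cell, corrected for errors in molecular identifiers by the pipeline's recursive substitution, which the authors made with version 1.9.1 of the BD WTA Rhapsody Analysis Pipeline, per the file headers, on GRCm39, per the submitters' processing notes. The aligner was not given in the sources used here. No free-RNA correction and no doublet caller was applied, and cells with markers of another type were counted instead. Members and gene lists were chosen with earlier results of these data known.

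Counts were summed over the hepatocytes of each library and tested with edgeR 4.0.16 (glmQLFit, robust, TMM scaling to all molecules, filterByExpr, Benjamini-Hochberg over all genes tested). Normalised CPM are TMM-scaled. Shares and zone ratios were compared by exact permutation over libraries. Cell-level values are descriptions. Levels are named for the 25 leading genes of pIVCL 3, for the zone lists and for up to 4 genes of a list, and fold changes for up to 10 called genes in each direction and the 2 of lowest p in each list. The test was checked on simulated data. Alternatives were DESeq2 1.42.0 (size factors or Wald test), no expression filter, replicate block, batch as a term or batch 2021.3 alone, each library left out, thresholds of 10% and 2%, at least 1000 molecules with at most 10% mitochondrial, no mitochondrial limit, and members with other markers left out. Some genes that the naming rule gives are not reported here.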

Additional observations from a re-analysis of the deposited data

How the results depend on the processing

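The difference in the share of hepatocytes kept its direction under every alternative run, but came close to 0 in some. It was 0.00288 percentage points within batch 2021.3, 0.0241 with the 10% threshold and 0.0985 to 1.09 with 1 library left out. The exact permutation test is too small to pass at 0.05 in any case. The zone ratio ranged from -0.067 (without sham 1, reversed) to 1.84 with 1 library left out, was -0.98 with the 2% threshold, and was 1.80 within batch 2021.3. Beside 8 genes called, there were 0 without an expression filter (edgeR, 82 of 7958 genes at an unadjusted p of 0.05, lowest adjusted p 0.653), 4 with the DESeq2 Wald test, 1 with the replicate block, 4 with batch as a term (Rpl41, Fth1, mt-Nd2 and Sod1), 0 within batch 2021.3 (18 of 115 unadjusted), 3 with at least 1000 molecules and at most 10% mitochondrial, 3 with the 2% threshold and 2 without a mitochondrial limit. Leaving out 1 library gave 0 to 27. DESeq2 size factors gave 6, and members without other markers 8. The 10% threshold and libraries of at least 10 hepatocytes left too few libraries to be fitted. The replicate block kept mt-Atp6, but deviations of same-numbered libraries correlated at only 0.077 and 0.068, so the numbers were not taken as pairs. The cause of these changes was not tested, but 3 of 5 libraries hold 1 or 2 hepatocytes. None of the 8 called genes reversed under any alternative that gave a value, but some came close to 0: at the 2% threshold, where none of the 8 passed, Aldh1a1 was 0.19 and Rpl41 0.25, and without a mitochondrial limit, where only Mup11 of the 8 passed, mt-Co2 was -0.24 and mt-Atp6 -0.34. Among the genes named without a call, log2 fold changes turned sign as follows. With the 2% threshold Apoc3 was -0.036, Apoc1 -1.08, C3 0.42, Cp 0.31, Arg1 -0.39, Cyp2f2 0.60, Scd1 -0.11, Rbp4 -0.16 and B2m -0.41. With batch as a term Scp2 was -0.72, Slco1b2 0.65, Scd1 -1.33, Mup20 -0.47, Mat1a -0.65 and Bhmt -2.43. Within batch 2021.3 Ass1 was -0.33, Scp2 -0.90, Scd1 -1.56 and Mup20 -0.69. Scd1 was -0.50 with the replicate block. Some turned with 1 library left out, between the value without sham 2 and that without sham 1: C3 from -1.12 to 0.11, Hp -1.52 to 2.11, Ass1 1.20 to -0.013, Slco1b2 -1.31 to 0.19, Serpina1e -1.14 to 0.075 and Ahsg -1.55 to 0.045. Scd1 ran from -0.036 without pIVCL 3 to 0.41 without sham 1.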
